A study of Mus musculus with 3 samples.

Results

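The genes described here are 8 regulators of RNA and chromatin that mark early embryonic progenitors: *Lin28a*, *Lin28b*, *Trim71*, *Hmga2*, *Sall4*, *Igf2bp1*, *Igf2bp2* and *Igf2bp3*. They were chosen by symbol, and all 8 were found among the 24062 gene symbols counted. RNA came from the rostrum (front of the head) of mouse embryos at E9, staged at 18 to 22 somites. One group was *tuft*, homozygous for a nonsense mutation in *Tet1* on the 3H1 Balb background, and these embryos had neural tube defects. The other group was wild type of the same strain. RNA of 3 embryos was pooled for each library, and 1 column of counts was analyzed per genotype, so that no value has a replicate error and no test between genotypes could be made. The labels list 2 *tuft* samples, and which of them the single *tuft* column holds, or whether it holds both, is not given.

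LIN28A and LIN28B bind the precursors of the let-7 microRNAs and block their maturation. let-7 in turn represses the mRNAs of *Lin28a*, *Lin28b*, *Trim71*, *Hmga2* and the *Igf2bp* genes, which makes the system a switch between progenitor and differentiated states. TRIM71 is an RNA-binding ubiquitin ligase whose loss in mice leaves the cranial neural tube open. HMGA2 bends DNA in chromatin, SALL4 is a zinc finger transcription factor of pluripotent and early embryonic cells, and the IGF2BP proteins bind and stabilize target mRNAs.

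Wild type had 14251942 counts on genes and *tuft* 6433067, and both were put on 1 scale by trimmed means (TMM). Levels are CPM, counts relative to the library total, after that scaling, and fold changes are *tuft* over wild type. Intervals in parentheses are exact 95% intervals and cover counting error alone: PCR copies were not marked, and embryos can differ by more. A gene was called higher or lower when this interval lay wholly beyond 2-fold. *Tet1* itself had 435 counts in wild type and 32 in *tuft*, a fold change of 0.214 (0.145 to 0.307). Of 10121 genes with at least 100 wild-type counts, 542 had no count in *tuft*, whereas the lowest of the 8 genes described here had 707 counts there.

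Of the 8 genes, *Hmga2* was called higher in *tuft* and none was called lower. Of all 13979 genes with at least 10 counts, 17.4% were called higher and 29.8% lower. Calls that were higher thus made up 36.8% of all calls, and 24.7% with library totals alone in place of TMM. Among the 2061 genes in the same range of mean level as the 8, from 121 to 919 CPM, 28.7% were called higher and 12.2% lower. The 8 genes thus had no larger share of calls than other genes of their level. Their median log2 fold change was 0.71, against 0.36 for the genes of like level and -0.55 for all genes assessed. The values of 6 of the 8 fell in the middle 50% of the genes of like level, which reached from -0.50 to 1.30. *Hmga2* lay above that range and *Igf2bp2* below it. The counting interval lay wholly above a fold change of 1 for 5 genes, wholly below 1 for 2 genes, and held 1 for *Sall4*. Beside these values, the summed level of 11 yolk sac endoderm genes was 2314 CPM in wild type and 384 in *tuft*, and that of 10 erythroid genes was 3291 and 46850 CPM. The embryonic globin genes *Hba-x* and *Hbb-y* made up 24265 and 21234 CPM of the erythroid sum in *tuft*, while 4 of the 9 erythroid genes assessed were called lower. Their part in the results was not tested.

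**Figure D1:**
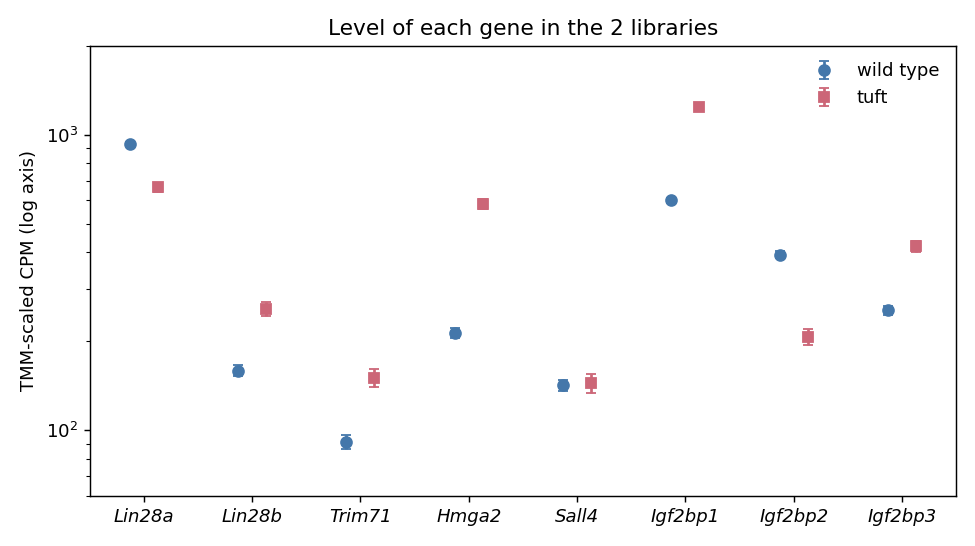
TMM-scaled CPM (log axis) of each gene in the wild-type library (blue circles) and the *tuft* library (red squares), with exact 95% Poisson intervals for counting error. *Hmga2* has the widest gap, from 213 to 584, *Sall4* is level at 142 and 144, and *Lin28a* and *Igf2bp2* are the genes with the lower value in *tuft*.

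The Lin28 paralogs differed in opposite directions. *Lin28a*, on chromosome 4 of GRCm38 from 134003330 to 134019196, had 13238 counts in wild type and 3250 in *tuft*. On the common scale these are 929 and 664 CPM, a fold change of 0.715 (0.688 to 0.743). By counts it ranked 76 among all genes in wild type and 263 in *tuft*. *Lin28b*, on chromosome 10 from 45376617 to 45486314, had 2268 and 1259 counts, or 159 and 257 CPM, a fold change of 1.62 (1.51 to 1.73). Neither gene passed the 2-fold call. With library totals alone in place of TMM both kept their direction, at log2 fold changes of -0.88 and 0.30.

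The balance within the pair does not depend on how the libraries were scaled. *Lin28b* made up 14.6% (14.1 to 15.2) of the Lin28 counts in wild type and 27.9% (26.6 to 29.3) in *tuft*. The ratio of *Lin28b* to *Lin28a* was thus 2.26 times (2.09 to 2.45) as high in *tuft*. The shift came with a smaller sum, since the Lin28 genes together had 1088 CPM in wild type and 921 in *tuft*, a fold change of 0.847 (0.819 to 0.875).

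The Igf2bp genes also split. *Igf2bp1*, on chromosome 11 from 95957163 to 96005944, had 8550 counts in wild type and 6059 in *tuft*, or 600 and 1238 CPM. Its fold change was 2.06 (2.00 to 2.13), and the lower bound, which is just under 2 before rounding, left it uncalled. *Igf2bp3*, on chromosome 6 from 49085218 to 49215469, had 3627 and 2054 counts and a fold change of 1.65 (1.56 to 1.74). *Igf2bp2*, on chromosome 16 from 22059009 to 22163299, went the other way with 5593 and 1014 counts. This is 392 CPM in wild type and 207 in *tuft*, a fold change of 0.528 (0.493 to 0.565), the lowest of the 8 genes.

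Within the family, *Igf2bp2* made up 31.5% (30.8 to 32.2) of the counts in wild type and 11.1% (10.5 to 11.8) in *tuft*. *Igf2bp1* took the larger part, with 48.1% (47.4 to 48.9) and 66.4% (65.4 to 67.4). The share of *Igf2bp3* was nearly level at 20.4% (19.8 to 21.0) and 22.5% (21.7 to 23.4). The ratio of *Igf2bp1* to *Igf2bp2* was 3.91 times (3.63 to 4.22) as high in *tuft*, and that of *Igf2bp3* to *Igf2bp2* was 3.12 times (2.86 to 3.41) as high. *Igf2bp1* and *Igf2bp3* thus moved more nearly together, at a ratio of ratios of 0.799 (0.7496 to 0.852) for *Igf2bp3* to *Igf2bp1*. The sum of the family was 1247 CPM in wild type and 1865 in *tuft*, with an interval of the fold change from 1.46 to 1.53. *Igf2bp3* overlaps *Malsu1*, a gene with 501 counts in wild type and 194 in *tuft*, and whether reads were counted by strand is not given.

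**Figure D2:**
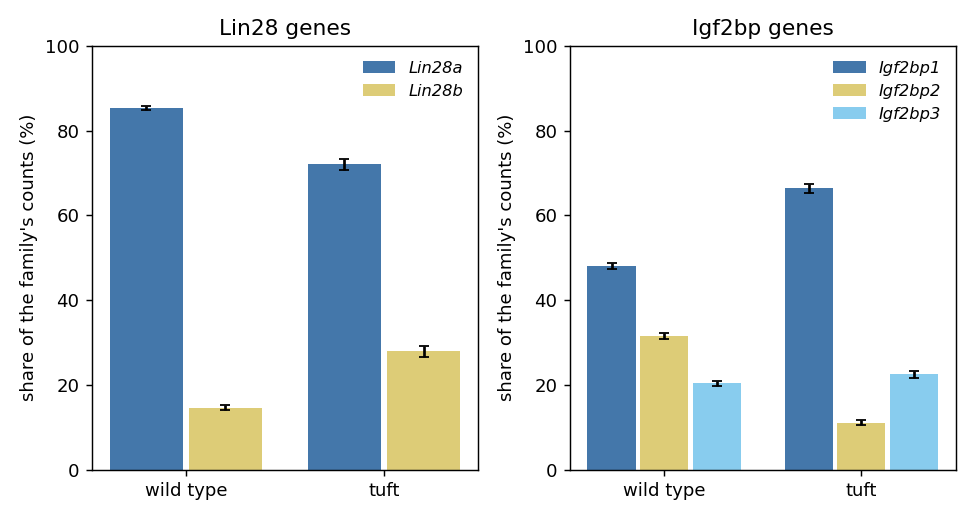
Share of each gene in the summed counts of its family (%, bars start at 0) in the wild-type and *tuft* libraries, with exact 95% binomial intervals for counting error. The *Lin28b* bar goes from 14.6% to 27.9%, and the *Igf2bp2* bar from 31.5% to 11.1% while *Igf2bp1* goes from 48.1% to 66.4%.

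*Hmga2*, on chromosome 10 from 120361268 to 120476469, had nearly the same number of counts in both libraries, 3041 in wild type and 2857 in *tuft*, although the *tuft* library was less deep. On the common scale these are 213 and 584 CPM, a fold change of 2.74 (2.60 to 2.88). No other of the 8 genes had a higher fold change, and 84.9% of all genes assessed lay below it. A transcribed pseudogene, *Hmga2-ps1*, can share reads with it and had 331 counts in wild type and 14 in *tuft*. With the counts of gene and pseudogene added up, the fold change was 2.48 (2.36 to 2.61). With library totals alone the log2 fold change of *Hmga2* was 1.06, with the interval no longer wholly beyond 2-fold.

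*Trim71*, on chromosome 9 from 114511268 to 114564369, had 1303 counts in wild type and 736 in *tuft*, or 91.4 and 150 CPM. Its fold change of 1.64 (1.501 to 1.80) was close to that of *Lin28b*, and the ratio of *Trim71* to *Lin28b* differed between the libraries by a factor of 1.02 (0.907 to 1.14), an interval that holds 1. For *Sall4*, on chromosome 2 from 168748332 to 168767201, the counts were 2024 and 707, or 142 and 144 CPM. Its fold change of 1.02 (0.932 to 1.11) was not told apart from 1 at this depth. The sign for *Sall4* turned with the scaling, to a log2 fold change of -0.023 with the upper quartile and of -0.37 with library totals alone. The other 7 genes kept their sign under each scaling tried.

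**Figure D3:**
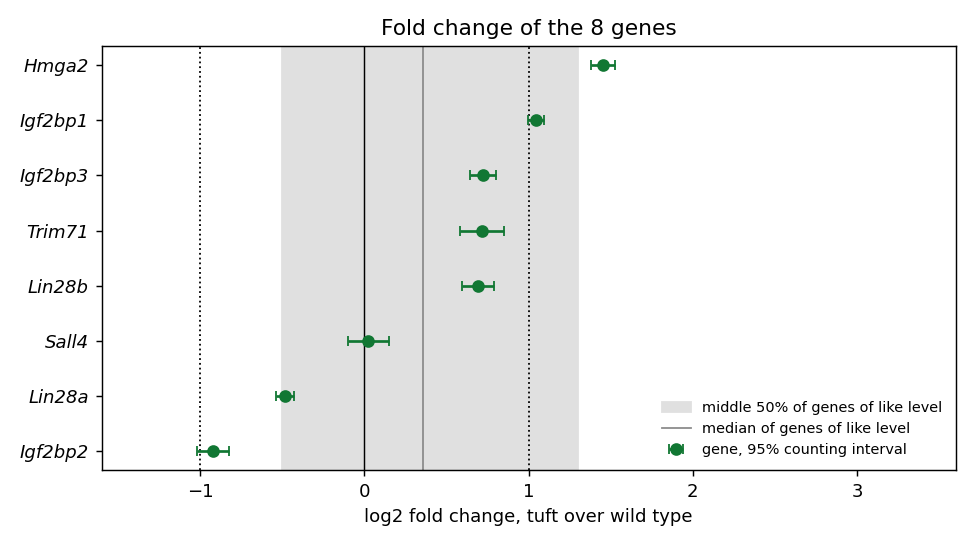
log2 fold change of each gene, *tuft* over wild type, with exact 95% binomial intervals for counting error (green); dotted lines mark 2-fold, and the gray band and line mark the middle 50% and the median of the 2061 genes of like level. *Hmga2* is the only gene with its interval wholly past 2-fold, at 1.45, and *Igf2bp2* is lowest at -0.92.

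Levels of different genes were compared per length, as RPKM, which is the scaled count divided by the length of the longest annotated transcript. The order in wild type was *Lin28a* (265), *Igf2bp2* (101), *Igf2bp1* (71.6), *Igf2bp3* (58.6), *Hmga2* (56.0), *Lin28b* (29.5), *Sall4* (28.0) and *Trim71* (17.6). Neighbors whose counting intervals overlapped in wild type were *Igf2bp3* and *Hmga2*, and *Lin28b* and *Sall4*. In *tuft* the order of levels per length was *Lin28a* (189), *Hmga2* (153), *Igf2bp1* (148), *Igf2bp3* (96.6), *Igf2bp2* (53.1), *Lin28b* (47.6), *Trim71* (29.0) and *Sall4* (28.5). There the overlapping neighbors were *Hmga2* and *Igf2bp1*, *Igf2bp2* and *Lin28b*, and *Trim71* and *Sall4*. *Lin28a* was thus the most abundant transcript of the 8 in both libraries, *Igf2bp2* went from place 2 to place 5, and *Hmga2* from place 5 to place 2.

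**Figure D4:**
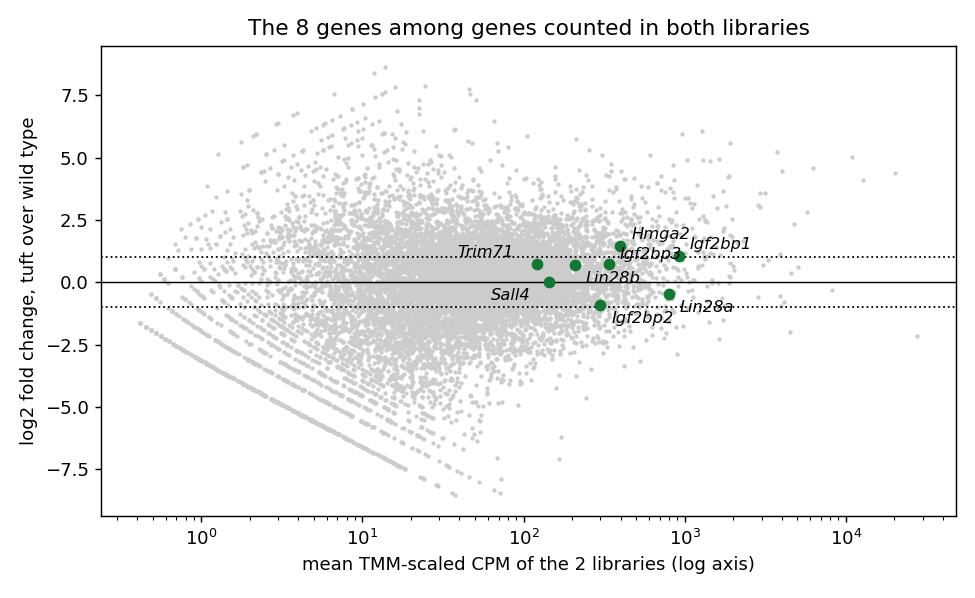
log2 fold change, *tuft* over wild type, against the mean TMM-scaled CPM (log axis) of the 11335 genes assessed that have counts in both libraries (gray), with the 8 genes in green and 2-fold as dotted lines. The 8 genes lie among the better counted genes, between -0.92 and 1.45, inside the wide spread of the gray points.

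The 8 genes were picked partly as genes of the let-7 pathway, and the letters that tie them to it lie in their 3′ UTRs. All members of the let-7 family with an annotated 5p arm in RefSeq (GRCm38.p6), 9 sequences with miR-98, share 1 seed. The mature sequences below stand for the family and for the hairpin genes described further on, with the seed (bases 2 to 8) in capitals.
let-7a-5p: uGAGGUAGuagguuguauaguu
let-7g-5p: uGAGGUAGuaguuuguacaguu
let-7d-5p: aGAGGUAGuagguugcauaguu
miR-98-5p: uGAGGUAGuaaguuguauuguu

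The matching site in an mRNA reads CTACCTC, and a stronger form of 8 bases, CTACCTCA, adds an A after it. The sense strand of the longest 3′ UTR of each gene in GENCODE vM1, the annotation of the older build NCBIM37, was searched for it. As a description of that choice, all 8 genes held at least 1 site of 8 bases, against 3.74% of 12460 assessed genes with a 3′ UTR and 5.79% of the 5425 of these with 3′ UTRs as long as those of the 8 (1370 to 6337 bases). The weaker form of 7 bases was found in 10.8% and 16.8% of these genes. The first site of 8 bases in each gene is shown, in DNA letters, with the match to the seed in capitals and the 14 bases before it.
*Lin28a*: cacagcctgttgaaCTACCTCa
*Lin28b*: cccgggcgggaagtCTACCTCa
*Trim71*: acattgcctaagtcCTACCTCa
*Hmga2*: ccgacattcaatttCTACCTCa
*Sall4*: gggctttaatttatCTACCTCa
*Igf2bp1*: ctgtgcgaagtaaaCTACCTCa
*Igf2bp2*: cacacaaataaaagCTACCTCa
*Igf2bp3*: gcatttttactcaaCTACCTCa

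These sites start 909, 36, 166, 58, 1082, 1715, 1313 and 548 bases into the 3′ UTR, in the order printed. Counting all sites of 7 bases, *Lin28b*, *Hmga2* and *Igf2bp1* had 4 each, *Lin28a* and *Trim71* had 2 each, and *Sall4*, *Igf2bp2* and *Igf2bp3* had 1 each. Per kilobase, *Trim71* (1.46) and *Hmga2* (1.33) were densest in sites and *Igf2bp3* (0.471) sparsest. The median log2 fold change was 0.72 over the 5 genes with 2 or more sites and 0.02 over the 3 genes with 1 site. The genes with 1 site were spread widely, with *Igf2bp2* at -0.92, *Sall4* at 0.02 and *Igf2bp3* at 0.72. Of the 5 genes with 2 or more sites *Lin28a* stands apart, with 2 sites of 8 bases and the lower value in *tuft*. Over all genes with 3′ UTRs as long as those of the 8, the median log2 fold change was -0.38 for genes without a site, -0.36 with 1 site and -0.11 with 2 or more. A match describes the letters of the UTR and not a bound site.

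The hairpin genes of let-7 were followed as rows of the same counts. These are libraries of poly-A RNA, in which a count on a hairpin row does not measure the mature microRNA. Whether such a count is a read of a longer transcript through the hairpin was not tested. Of 12 hairpin genes, 2 had at least 10 counts, and both were called higher. *Mirlet7d*, on the minus strand at chr13:48536012-48536114, had 28 counts in wild type and 462 in *tuft*, a fold change of 48.0 (32.8 to 73.1). *Mir98*, on the plus strand at chrX:151913214-151913321, had no count in wild type and 163 in *tuft*. This is 158-fold higher when the wild-type library is set at 3 counts, and the exact interval had a lower bound of 127-fold. *Mir98* lies inside *Huwe1*, a gene that went the other way with 8369 counts in wild type and 647 in *tuft*. *Mirlet7g*, inside *Wdr82* (2532 counts in wild type and 8950 in *tuft*), had 4 and 0 counts. *Mirlet7a-1* had 0 and 5 counts and the remaining 8 hairpin genes had none in either library. Some of these lie near the counted hairpins on the same strand. *Mirlet7f-1* and *Mirlet7a-1* start at chr13:48537829 and chr13:48538179, close to *Mirlet7d*, and *Mirlet7f-2* lies with *Mir98* inside *Huwe1*.

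LIN28 proteins recognize the letters GGAG in the loop side of let-7 precursors. The letters were present downstream of the 5p arm in 9 of the 12 hairpins, and *Mir98*, *Mirlet7b* and *Mirlet7c-2* lacked them there. The 2 counted hairpins are shown because they differ in this feature, with GGAG in capitals.
*Mirlet7d*: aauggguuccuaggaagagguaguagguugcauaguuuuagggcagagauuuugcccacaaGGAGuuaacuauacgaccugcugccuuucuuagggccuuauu
*Mir98*: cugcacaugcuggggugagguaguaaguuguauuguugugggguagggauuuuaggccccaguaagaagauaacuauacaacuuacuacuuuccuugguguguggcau

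The genes that make, load and destroy let-7 precursors lay below wild type in 13 of 19 cases, as did 8457 of all 13979 genes. Of these 19 genes, 6 (31.6%) were called lower, close to the 29.8% of all genes, and 1 (5.26%) higher, against 17.4%. Their median log2 fold change was -0.80, against -0.55 over all genes. Among genes of the members' level, 12.2% were called lower and 28.7% higher. With library totals alone 9 of the 19 were called lower and 0 higher. *Zcchc11*, a uridyl transferase that LIN28A recruits to let-7 precursors, was the gene called higher, with 663 counts in wild type and 612 in *tuft*, 2.69-fold (2.40 to 3.00). *Zcchc6*, its paralog with an overlapping role, was called lower, from 359 counts to 13, a fold change of 0.105 (0.0556 to 0.183). These paralogs, too, differed in opposite directions. *Dis3l2*, the exonuclease that degrades uridylated let-7 precursors, went from 687 counts to 73, or 0.309 (0.240 to 0.394). *Trim25*, a cofactor of the uridylation step, went from 428 counts to 19, or 0.129 (0.0771 to 0.204).

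Upstream in the pathway, the nuclear processing enzyme *Drosha* was called lower at 0.339 (0.309 to 0.371), from 4554 counts to 530. The exporter *Xpo5* was called lower at 0.412 (0.380 to 0.447). *Dgcr8*, the partner of DROSHA, had a fold change of 0.516 (0.458 to 0.580), which did not pass. *Dicer1*, which cuts the precursor and is itself known as a let-7 target, had one of 0.681 (0.631 to 0.734). Of the Argonaute genes, *Ago3* was called lower with 108 counts in wild type and 2 in *tuft*, a fold change of 0.0539 (0.00645 to 0.200). *Ago2*, the most counted of them, had a fold change of 0.775 (0.713 to 0.843) without a call.

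Among known let-7 targets other than the 8 genes, more were called higher than lower, a balance that depended on the scaling. Of 31 assessed, 12 (38.7%) were called higher and 4 (12.9%) lower, with a median log2 fold change of 0.50. The shares called were 17.4% and 29.8% over all genes, and 28.7% and 12.2% over genes of the members' level. With library totals alone 7 of the 31 were called higher and 6 lower. The highest fold changes were those of *Lin52*, 9.85 (7.75 to 12.6) from 89 and 301 counts, and *Map4k4*, a kinase, 5.57 (5.39 to 5.75) from 5762 and 11014 counts. *Hmga1*, the paralog of *Hmga2*, had 52 counts in wild type and none in *tuft*. This is 5.95-fold lower with the *tuft* library set at 3 counts, and at least 4.67-fold lower by the exact interval. *Hic2*, a transcriptional repressor, had the next lowest fold change, 0.176 (0.144 to 0.214). The neural oncogene *Mycn*, which sustains *Lin28b* in other settings, had a fold change of 1.59 (1.47 to 1.71), and *Myc*, which has the same role, one of 1.13 (1.03 to 1.24), both without a call. Of the 21 list genes with a site of 7 bases, 11 were called higher and 3 lower, and of the 9 without one, 1 was called higher and none lower. Over all assessed genes with a 3′ UTR, 1344 had a site, of which 243 were called higher and 383 lower. Of the 11116 without a site, 1820 were called higher and 3377 lower. Target lists are compiled partly from such sites.

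**Figure D5:**
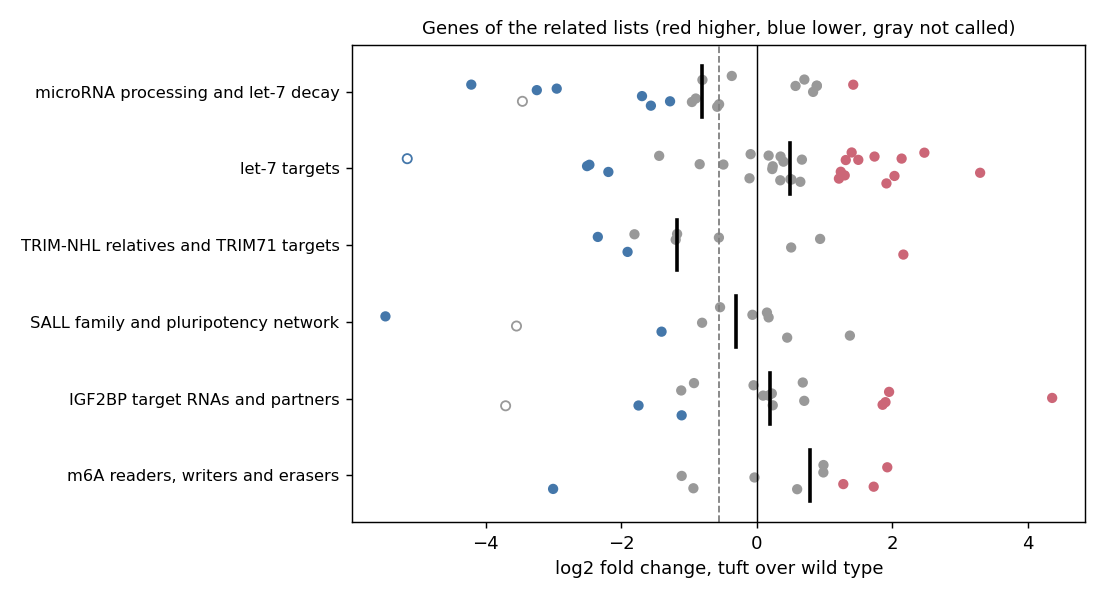
log2 fold change, *tuft* over wild type, of each gene with at least 10 counts in 6 lists of related genes (red called higher, blue called lower, gray not called; open circles had no count in 1 library and are drawn with 0.5 in its place). Black bars are list medians and the dashed line is the median of all genes assessed, -0.55. The let-7 targets have their median at 0.50 and the processing genes at -0.80.

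The relatives and targets of TRIM71 gave 1 call higher (11.1%) and 2 lower (22.2%) among 9 genes, against 17.4% and 29.8% of all genes. Their median log2 fold change was -1.17. *Cdkn1a*, a cell cycle inhibitor whose mRNA TRIM71 represses, was called higher at 4.49 (3.31 to 6.13), from 72 and 111 counts. *Trim2* and *Trim3*, which share the NHL domain of TRIM71, were called lower at 0.267 (0.199 to 0.352) and 0.197 (0.124 to 0.298).

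Among the paralogs of *Sall4*, *Sall1*, *Sall2* and *Sall3* had fold changes of 0.572 (0.503 to 0.649), 1.11 (1.06 to 1.17) and 1.37 (1.18 to 1.58), none of them called. The pluripotency genes *Pou5f1* and *Nanog* were at or near the floor of detection, while *Sox2*, which also marks neural progenitors, had 2052 counts in wild type and 675 in *tuft*, a fold change of 0.958 (0.877 to 1.05). *Pou5f1* had no count in either library and *Nanog* had 1 count in wild type and 2 in *tuft*, whereas *Lin28a* and *Sall4*, which act with them in pluripotent cells, had the levels given above. The limit that a count of 0 allows is 3 counts, or 0.210 CPM in wild type and 0.466 CPM, before scaling, in *tuft*. Of all genes assessed 29.8% were called lower, and of the 10 assessed in this list 2 (20%) were called, both lower. They were *Tfcp2l1*, with 130 counts and 1 count, a fold change of 0.0224 (0.000563 to 0.127), and *Dnmt3b*, the de novo DNA methyltransferase, at 0.378 (0.334 to 0.426).

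Among RNAs bound by IGF2BP proteins and their partners, 4 of 16 (25%) were called higher and 2 (12.5%) lower, with a median log2 fold change of 0.20. The shares were 17.4% and 29.8% over all genes, and 28.7% and 12.2% over genes of the members' level. Library totals alone gave 4 calls in each direction in the list. The imprinted transcripts for which the family is known were high. *H19* had 26621 counts in wild type and 188168 in *tuft*, 20.6-fold (20.3 to 20.8), and *Igf2* had 11512 and 14781, 3.74-fold (3.65 to 3.83). *Syncrip* and *Fmr1*, RNA-binding partners, were called higher at 3.88 (3.65 to 4.12) and 3.63 (3.23 to 4.09). *Ybx1* and the helicase *Dhx9*, also partners in these particles, were called lower at 0.299 (0.286 to 0.312) and 0.464 (0.435 to 0.496), and the call for *Dhx9* was lost with DESeq2 size factors. *Actb*, the classic zipcode mRNA of IGF2BP1, had a fold change of 1.63 (1.60 to 1.66), without a call.

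IGF2BP proteins also read the m6A mark on mRNA. Of 10 genes that read, write or erase this mark, 3 (30%) were called higher and 1 (10%) lower, with a median log2 fold change of 0.79. The shares were 17.4% and 29.8% over all genes, and 28.7% and 12.2% over genes of the members' level. The balance in the list turned with library totals alone, to 2 higher and 3 lower. The demethylase gene *Fto* had a fold change of 3.81 (3.59 to 4.04), the writer subunit *Wtap* 3.31 (2.98 to 3.69) and the reader *Ythdf2* 2.43 (2.26 to 2.61). *Ythdc2* was called lower at 0.125 (0.0530 to 0.251). The catalytic writer *Mettl3* was level at 0.978 (0.846 to 1.13).

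Promoter windows of 300 bases from RefSeq (GRCm38.p6) were matched for 6 of the 8 genes, not for *Sall4* and *Igf2bp1*. The *Igf2bp2* window held 47 CpG dinucleotides, against a median of 21 (quartiles 13 and 29) over 10387 genes assessed. *Igf2bp3* had 25, *Trim71* 19, *Hmga2* 12, *Lin28a* 10 and *Lin28b* 8. The 6 windows thus reached from below the lower quartile to above the upper one. CpG number and fold change had no common order, since *Igf2bp2* and *Lin28a*, the genes lower in *tuft*, had 47 and 10, and *Igf2bp3*, higher in *tuft*, had 25.

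Tissue markers were read beside these values, because in a pool of tissue fewer cells of a type and less RNA per cell cannot be told apart. Of all genes assessed, 17.4% were called higher and 29.8% lower. Markers of the anterior head were present, with 3 of 11 called higher and 2 lower, and a summed level of 726 CPM in wild type and 1321 in *tuft*. *Rax* and *Hesx1*, early forebrain and eye field genes, had 389 and 36 counts in wild type and 2 and 0 in *tuft*. *Emx2* and *Six3*, of the dorsal and anterior forebrain, were called higher at 6.43 (5.88 to 7.04) and 4.14 (3.81 to 4.50). Neural progenitor genes had 4 of 12 called higher and 1 lower, at 1243 and 1581 CPM. Library totals alone gave 2 calls in each direction, and the sums were 1243 and 1203 CPM, so that the higher level in *tuft* depended on the scaling. Neuron differentiation genes had 2 of 11 called higher and 1 lower, at 196 and 255 CPM. Here too library totals alone gave 2 calls in each direction, with sums of 196 and 194 CPM. The neuronal RNA-binding genes *Elavl3* and *Elavl2* were the genes called higher, at 5.58 (3.90 to 8.09) and 5.55 (4.63 to 6.65), and the growth cone gene *Gap43* was called lower at 0.408 (0.330 to 0.499), a call lost with DESeq2 size factors and with TMM without *Rn45s*, mitochondrial and globin genes. Head mesenchyme genes had 2 of 10 called in each direction, at 424 and 600 CPM. *Twist1* was called higher, at 71.7 CPM in wild type and 225 in *tuft*, and *Prrx2* had 301 counts in wild type and none in *tuft*. For this list library totals alone gave 1 call higher and 2 lower, with sums of 424 and 456 CPM. None of these lists was one-sided.

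Markers of tissues other than the head were mixed. The shares over all genes, 17.4% called higher and 29.8% lower, apply here too. Of 11 yolk sac endoderm genes 9 were called lower, and *Apoa4* and *Fgb* were at 0 in *tuft*. Endothelial genes had 3 of 7 called lower and 1 higher, with summed levels of 310 and 177 CPM and *Pecam1* at 0 in *tuft*. Of 9 erythroid genes assessed 3 were called higher and 4 lower. The embryonic globins *Hbb-y* and *Hba-x* were called higher at 32.4 (31.7 to 33.1) and 17.1 (16.9 to 17.4), while *Gata1* and *Klf1*, transcription factors of that lineage, were at 0 in *tuft*. Another embryonic globin gene, *Hbb-bh1*, had 15430 counts in wild type and 5707 in *tuft*. Its fold change was 1.08 (1.04 to 1.11), without a call. The yolk sac and endothelial sums were lower in *tuft*. *Lin28a* and *Igf2bp2* were lower too, as were 8457 of all 13979 genes assessed. Whether these tissues had a part in the values of *Lin28a* and *Igf2bp2* was not tested. The erythroid sum was higher through *Hbb-y* and *Hba-x*, with a median log2 fold change over the list of 0.11. Posterior body genes summed to 5.19 and 0.817 CPM, with 4 of 13 assessed and none called in either direction. Germ cells can also express *Lin28a* and *Sall4*, and their marker genes summed to 74.8 and 107 CPM. Most of these sums was *Kit* (51.2 and 67.8 CPM) and *Tfap2c* (14.7 and 32.9 CPM), both without a call. Of the 4 assessed 1 was called, *Dnd1*, lower from 36 counts to 1, a fold change of 0.0809 (0.00199 to 0.480). *Dppa3* and *Dazl*, defining germ cell markers, had no count in either library, and *Ddx4* had 1 count in wild type.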

How the data were processed

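Per the labels and the study's methods, the authors pooled poly-A RNA of 3 embryos per genotype, sequenced it on an Ion Proton in single-end mode and trimmed the reads with PRINSEQ. TopHat2 2.0.14 with Bowtie2 2.2.5 aligned them to mm10, and HTSeq counted them. The files deposited hold raw counts per gene symbol. HTSeq version, strand setting and gene models are not given in the sources used here. The 5 summary lines were kept out of totals: 51.4% of entries in wild type and 59.2% in *tuft* were alignments that were not unique, so near-identical copies lose reads.

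Counts were scaled by TMM (edgeR 4.0.16, R 4.3.3), a factor of 0.761 for *tuft* over wild type beyond library totals. Fold changes carry Clopper-Pearson intervals and levels exact Poisson intervals (scipy 1.17.1, Python 3.11.15). With 1 library per genotype no test was run across genes, and the study's caller, NOISeq-sim, was not used because it rests on simulated libraries. Genes needed 10 counts over both libraries to be assessed, and a count of 0 was set at 0.5 for a log2 value. RPKM was computed from these counts with GENCODE vM1 transcript lengths. The calls and intervals were tested on simulated data that held counting error alone and a known scaling. That test cannot speak to differences between embryos or to error in the scaling.

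The 8 genes and all lists were chosen with earlier results of these data known. From each pathway list the text names all called genes where there were 3 or fewer, and elsewhere the 2 genes at either end of the called fold changes (30 counts or more over both libraries), and any gene at 0 in 1 library with at least 100 counts in the other. Other list genes were named for their role after their values were seen. Likeness of pattern to other genes was not computed, since there are 2 libraries. Alternatives were other scalings (library totals, upper quartile, DESeq2 1.42.0 size factors, TMM without *Rn45s*, mitochondrial and globin genes), filters, the value for 0 and the size of fold called.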

Additional observations from a re-analysis of the deposited data

How the results depend on the processing

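The number of the 8 genes called higher in *tuft* was 1, and none was called lower. With library totals alone 0 were called higher and 1 (*Igf2bp2*) lower, and the median log2 fold change of all genes moved by -0.39. The share of all calls that were higher went from 36.8% to 24.7%. DESeq2 size factors, and the fold change itself beyond 2-fold, gave 2 higher (*Hmga2* and *Igf2bp1*). An interval wholly beyond 1.5-fold gave 5 higher and 1 lower, and one beyond 4-fold 0 higher, with 970 of all genes called higher and 2218 lower in place of 2433 and 4172. The upper quartile, TMM without *Rn45s*, mitochondrial and globin genes, both filters on low counts and 1 in place of a count of 0 gave the same counts of the 8 genes as reported. *Sall4* turned to a log2 fold change of -0.37 with library totals and -0.023 with the upper quartile. No paired analysis was possible because each genotype has 1 column of counts, and no replicate could be left out for the same reason. With TMM, counting error kept *Igf2bp1* uncalled and left the sign of *Sall4* undecided, but both also depended on the scaling. With library totals the *Sall4* interval was wholly negative, from -0.50 to -0.25 in log2. The *Igf2bp1* log2 fold change was 0.65 with library totals and 0.997 with the upper quartile, under 2-fold, while DESeq2 size factors gave a call. The spread between embryos is unknown.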
